A study of Mus musculus with 55 samples.

Results

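The 8 genes described here are the CREB, CRTC and SIK regulators Creb1, Crem, Crtc1, Crtc2, Crtc3, Sik1, Sik2 and Sik3. They are a list of named genes out of 27024 genes that had a transcript in the count tables of both experiments, and each gene is represented by its RefSeq transcript with the most counts. The data come from primary forebrain neurons, cortex and hippocampus pooled, of CD1 mouse embryos of mixed sex, a culture in which astrocyte and oligodendrocyte markers were also measured. In the maturation experiment (28 samples, 10 groups) neurons at 7DIV (7 days in vitro) and mature neurons, labelled 23DIV in the samples, were left untreated (basal) or received 55 mM KCl, which depolarizes the membrane, or 50 µM Bicuculline with 2.5 mM 4-aminopyridine (Bic+4AP), for 15 or 180 min. Bicuculline blocks GABA-A receptors and so releases network firing, and 4-aminopyridine blocks potassium channels. In the stimuli experiment (27 samples, 11 groups) neurons at 21DIV received 55 mM KCl or 50 µM Bicuculline alone (Bic), or were silenced with 1 µM tetrodotoxin (TTX), a blocker of sodium channels, for 48 h and then washed free of it (TTXw), for 15, 45 or 180 min. KCl and Bic were compared with basal neurons (3 samples), and TTXw with neurons held in TTX (basal TTX, 4 samples), which were also compared with basal neurons. Control wells were washed in the same way as the TTXw wells. The groups held 2 to 4 samples each. No allele or transgene separates them, and all the wells share strain, type of medium and plating. TTX was washed out by repeated exchanges with fresh medium, whereas KCl, Bicuculline and basal wells kept most of their conditioned medium. Basal TTX against basal can therefore also differ in this handling.

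CREB1 is a transcription factor that sits on cAMP response elements (CREs) and is switched on when kinases downstream of calcium and cAMP phosphorylate it. CREM is a close relative, whose gene also makes the short repressor ICER from an internal promoter that is itself induced by cAMP. The CRTC proteins are coactivators of CREB. Salt-inducible kinases (SIKs) phosphorylate CRTCs and so keep them bound to 14-3-3 proteins in the cytoplasm, whereas calcineurin removes these phosphates and lets CRTCs enter the nucleus. Sik1 and Crem are themselves textbook targets of CREB, and CRTC1 is the coactivator best known in neurons, where synaptic activity drives it from the synapse to the nucleus.

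The members are placed on the mouse build GRCm38 (RefSeq annotation of GRCm38.p6): Creb1 at chr1:64532794-64604548, Crtc1 at chr8:70382352-70439702, Crtc2 at chr3:90253858-90264125, Crtc3 at chr7:80586627-80688948, Sik1 at chr17:31844248-31855804, Sik2 at chr9:50889644-51009132 and Sik3 at chr9:46012820-46224194. Sik2 and Sik3 share chromosome 9. Promoter windows, 250 bases before to 50 after the annotated start, were at hand for 5 members, namely Creb1, Crtc1, Crtc3, Sik2 and Sik3. The 5-base core of a CRE, TGACG or its reverse complement CGTCA, was found in 2 of the 5, and 6837 of 32851 mouse promoters in the same table (20.8%) hold it. The full palindrome TGACGTCA was in 0 of the 5 and in 588 promoters of the table (1.79%), and since it contains the core on both strands its matches are counted among those of the core. The Sik2 and Sik3 windows, the pair with a match, are shown because Sik2 is the member whose RNA moved in the most comparisons and Sik3 is a kinase of the same family, with the core in capitals. The Sik2 window, on the minus strand at chr9:51009024-51009323, has a match 1 base upstream of the start and another at base 13 of the transcript, counted from the start that the promoter table gives, which lies 59 bases inside the gene span printed above. The Sik3 window, on the plus strand at chr9:46012570-46012869, has 3 matches, all before the start, the nearest of them 57 bases upstream, and its start is that of the gene span. A match to these letters is a description and no evidence of binding.
Sik2 promoter: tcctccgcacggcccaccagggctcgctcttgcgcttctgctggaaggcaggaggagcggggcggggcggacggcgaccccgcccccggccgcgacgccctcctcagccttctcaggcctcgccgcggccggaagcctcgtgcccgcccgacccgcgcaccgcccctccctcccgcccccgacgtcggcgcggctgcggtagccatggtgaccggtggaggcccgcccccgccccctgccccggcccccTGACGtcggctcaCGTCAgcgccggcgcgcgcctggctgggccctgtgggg
Sik3 promoter: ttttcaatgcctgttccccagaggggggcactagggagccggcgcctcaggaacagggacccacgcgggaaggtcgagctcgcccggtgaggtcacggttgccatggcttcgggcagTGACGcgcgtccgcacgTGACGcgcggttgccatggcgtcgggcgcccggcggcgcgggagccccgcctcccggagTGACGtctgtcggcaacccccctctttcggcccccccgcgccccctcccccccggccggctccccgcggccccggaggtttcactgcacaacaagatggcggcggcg
These windows are rich in G and C, with 80% in Sik2, 73.7% in Sik3 and 69% to 74.7% in Creb1, Crtc1 and Crtc3, beside a median of 52.7% over the promoters in the table.

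Libraries held 1659722 to 14012872 counts on genes in the maturation experiment and 1177500 to 3909487 in the stimuli experiment, so that 3 counts, the upper limit that a count of 0 allows, stand for 0.217 to 1.83 CPM (counts scaled to the total of the library) and 0.795 to 2.69 CPM. Principal components set the 7DIV basal replicate 3, the 23DIV KCl 180 min replicate 1 and the 23DIV basal replicate 1 apart from their groups. The 2 samples of 23DIV Bic+4AP 15 min lay apart from each other. Without 23DIV basal replicate 1, the Sik2 call with KCl at 15 min at 23DIV was lost (log2 fold change 0.86, adjusted p = 0.0606), and the other 23DIV calls against basal and both calls between the stages were kept. Neuronal markers summed to 9297 to 9472 CPM in 7DIV basal, 6017 to 7059.8 in 23DIV basal and 7809 to 8418 in 21DIV basal samples. Astrocyte markers summed to 592 to 863, 4641 to 5656 and 2623 to 3222 CPM in the same groups. Microglial markers stayed at or under 21 CPM and endothelial markers at or under 3 CPM in every library. In such bulk samples, fewer cells of a type and less RNA per cell cannot be told apart. The labels do not say that replicates came from separate cultures, so p-values measure the spread between these samples, which may be technical.

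Tests used edgeR's quasi-likelihood model, with adjusted p-values (Benjamini-Hochberg) over all genes tested, and a gene is called here when the adjusted p is under 0.05 and the change at least 1.5-fold. Of the 8 members, 7 had enough counts to be tested in each stimulation comparison. Sik1 passed the filter, over 5 CPM in at least 2 samples of an experiment, through stimulated samples alone. These were KCl and Bic+4AP samples at 180 min in the maturation experiment and Bic samples in the stimuli experiment. Its basal, basal TTX and TTXw samples were at or under 3.77 CPM. The 17 comparisons of a stimulus with its own control gave 119 member tests, of which 12 (10.1%) were called, beside 3.66% of the tests of all genes over the same comparisons. Those calls were 9 increases, 6 of them Sik2, 2 Crem and 1 Sik1, and 3 decreases, one each of Creb1, Crtc1 and Crtc3. Sik3 was not called in any stimulation comparison, and Crtc2 was too low to test. The plot of fold changes by comparison shows these changes together.

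**Figure D1:**
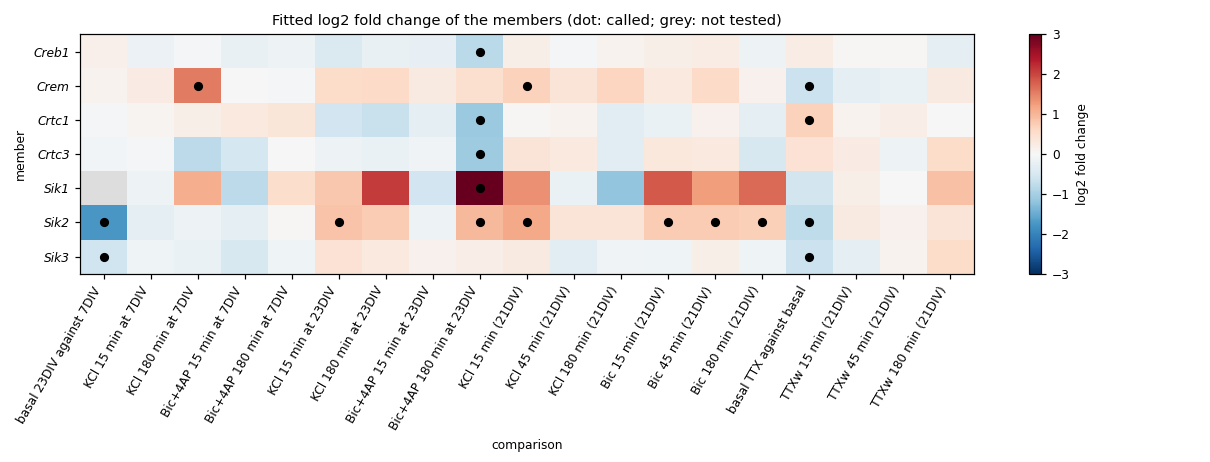
Log2 fold change of each tested member between the basal stages, in each stimulation comparison and in basal TTX against basal, with the calls marked. Sik2 was called in 6 stimulation comparisons, and Sik1 at 180 min of Bic+4AP at 23DIV had the largest value plotted (log2 fold change 2.99).

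The shares of all tested genes that were called give the background of these counts. Between basal 23DIV and 7DIV neurons, 2 of 6 tested members were called, beside 33.1% of all genes. At 7DIV, KCl called 0 of 7 members at 15 min (background 0%) and 1 of 7 at 180 min (1.98%), while Bic+4AP called 0 of 7 at 15 min (0%) and at 180 min (0%). DESeq2 also called none of the members in the 3 comparisons without a call at 7DIV, and 0, 1 and 0 members had an unadjusted p under 0.05 in edgeR (KCl 15 min, Bic+4AP 15 min, Bic+4AP 180 min). At 23DIV, KCl called 1 of 7 at 15 min (6.23%) and 0 of 7 at 180 min (4.89%), whereas Bic+4AP called 0 of 7 at 15 min (0.0511%) and 5 of 7 at 180 min (14.2%). The comparisons without a call had 4 members (KCl 180 min) and 0 members (Bic+4AP 15 min) at an unadjusted p under 0.05 in edgeR, and DESeq2 called 0 in both, giving no adjusted p for 5 of the 7 in the second. Bic+4AP at 180 min in mature neurons was thus the stimulation in which the most members were called.

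In the stimuli experiment KCl called 2 of 7 members at 15 min (7.22%), 0 at 45 min (0.765%) and 0 at 180 min (0.765%). Bic called 1 of 7, Sik2, at each time, beside 3.42% of all genes at 15 min, 7.45% at 45 min and 0.765% at 180 min. TTXw called 0 of 7 at 15 min (0%), 45 min (0.382%) and 180 min (14%). In edgeR 1 and 2 members had an unadjusted p under 0.05 with KCl at 45 and 180 min, and 0, 0 and 3 with TTXw at 15, 45 and 180 min, and DESeq2 called 0 members in each of these 5 comparisons. Basal TTX against basal called 4 of 7 members, beside 21.6% of all genes. So the members' share exceeded the background by the most in Bic+4AP at 180 min and in the silenced neurons, without a test of that excess.

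Direct comparisons gave fewer calls. For the response at 23DIV minus that at 7DIV, called at an adjusted p under 0.05, the members called were 0 of 7 for KCl 15 min (2.03%), 0 for KCl 180 min (0.775%), 0 for Bic+4AP 15 min (0.00851%) and 1 for Bic+4AP 180 min (4.95%). For 180 against 15 min, they were 1 of 7 for KCl at 7DIV (2.71%), 0 for KCl at 23DIV (0.902%), 0 for Bic+4AP at 7DIV (0%) and 2 for Bic+4AP at 23DIV (12.2%). For Bic against KCl, they were 0 of 7 at 15 min (0%), 45 min (0.682%) and 180 min (0.732%). For successive times of a stimulus, they were 1 of 7 for KCl 45 against 15 min (0.416%), and 0 for KCl 180 against 45 min (0.141%), Bic 45 against 15 min (0.141%), Bic 180 against 45 min (3.04%), TTXw 45 against 15 min (0.266%) and TTXw 180 against 45 min (12.3%). In edgeR the comparisons with 0 calls had 1, 3 and 0 members (responses), 0 and 0 (180 against 15 min), 1, 2 and 2 (Bic against KCl) and 0, 0, 1, 0 and 1 (successive times) at an unadjusted p under 0.05, in the order given. DESeq2 gave no adjusted p for 6 of the 7 members in KCl 180 against 45 min and 5 of the 7 in TTXw 45 against 15 min, and otherwise called 0 members in these comparisons but for Crem in the KCl 180 min response (adjusted p = 0.0279, against 0.0645 in edgeR).

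Creb1, the founding member of the family, was called in 1 of 17 stimulation comparisons. Its level ran from 15.0 to 31.3 CPM in the maturation experiment and from 26.4 to 43.9 CPM in the stimuli experiment. Basal neurons had 25.04, 27.4 and 28.6 CPM at 7DIV and 26.9, 30.8 and 31.3 CPM at 23DIV, a difference that did not pass the test (log2 fold change 0.16 ± 0.20, adjusted p = 0.56). After 180 min of Bic+4AP at 23DIV the level was 15.04 and 18.9 CPM, and both treated samples lay below the 3 basal ones. This decrease was the single call for Creb1 (log2 fold change -0.81 ± 0.21, adjusted p = 0.00744), and it was lost without Bic+4AP 180 min replicate 2 (log2 fold change -0.65, adjusted p = 0.16) or with no filter on low genes (adjusted p = 0.0515). In the stimuli experiment its group means ran from 28.98 ± 3.63 (SD, n = 2) with Bic at 180 min to 38.3 ± 4.93 (n = 3) with TTXw at 15 min, and none of the tests among these groups was called.

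**Figure D2:**
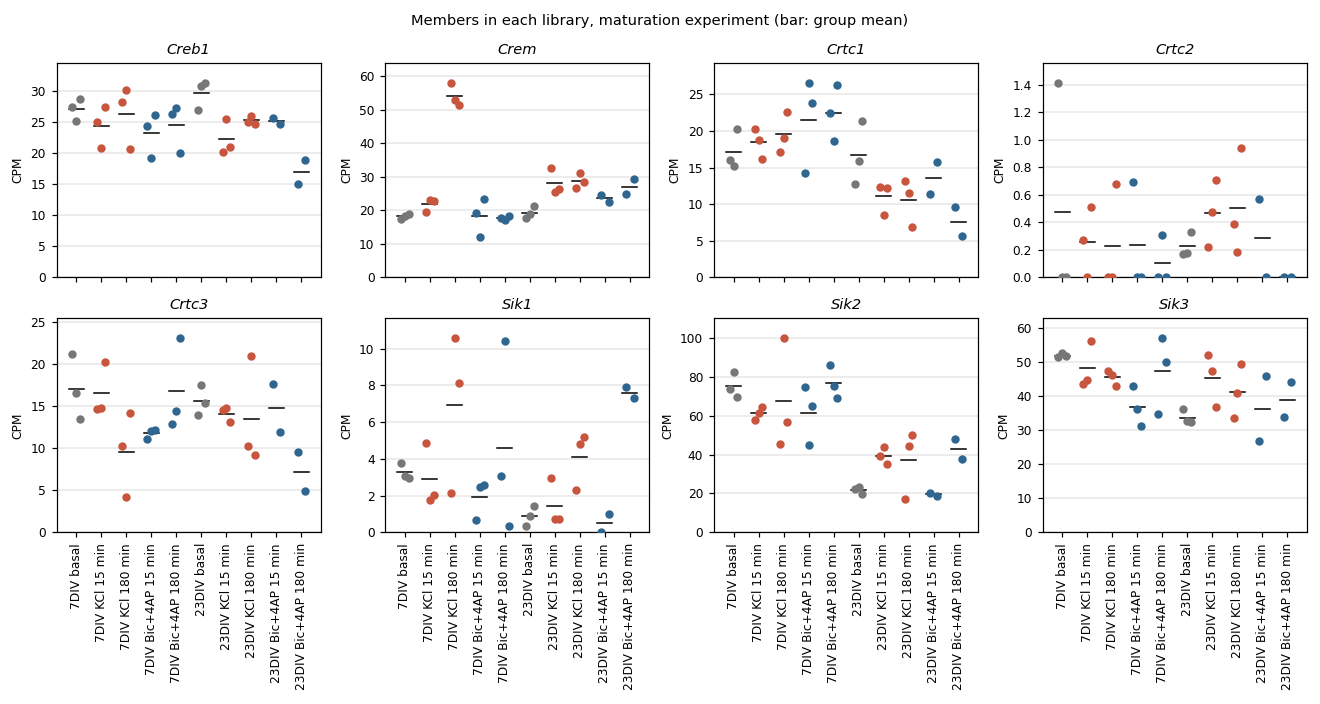
Level in CPM of each member in each sample of the maturation experiment, by group, with points for samples and bars for group means. Crem reached 51.3 to 58.1 CPM with KCl at 180 min in 7DIV neurons, and basal Sik2 ran from 69.6 to 82.4 CPM at 7DIV and from 19.8 to 23.5 CPM at 23DIV.

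Crem, at chr18:3266354-3337773, rose most with prolonged KCl in immature neurons. At 7DIV it was at 17.4, 18.3 and 18.9 CPM in basal neurons and 19.5, 22.8 and 22.98 CPM after 15 min of KCl. After 180 min of KCl it was at 51.3, 52.9 and 58.1 CPM, and these 3 samples lay above every other sample of both experiments. The change from basal was a log2 fold change of 1.56 ± 0.19 (adjusted p = 9.75e-06), and that from 15 to 180 min was 1.31 ± 0.19 (adjusted p = 3.91e-05). Both calls held without each library in turn and under every other setting. The Bic+4AP samples at 7DIV, 17.1, 17.7 and 18.1 CPM at 180 min, overlapped the basal ones.

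In 23DIV neurons both times of KCl gave similar levels. Crem was at 17.6, 18.9 and 21.3 CPM in basal neurons, 25.4, 26.4 and 32.5 CPM after 15 min of KCl and 26.5, 28.4 and 30.97 CPM after 180 min, so that the treated samples lay above the basal ones at both times. At 15 min the adjusted p was 0.0488 with a change under 1.5-fold (log2 fold change 0.55 ± 0.18), and at 180 min it was 0.0516 (log2 fold change 0.57 ± 0.18). At 180 min it passed without 7DIV basal replicate 4, 23DIV KCl 15 min replicate 3 or 23DIV KCl 180 min replicate 1, the library that stands apart (adjusted p 0.0468 to 0.0483). The 180 min response minus that at 7DIV was -0.99 ± 0.26 on the log2 scale (adjusted p = 0.0645), so the difference between the stages missed the threshold in edgeR and passed it in DESeq2. It also passed without 7DIV Bic+4AP 15 min replicate 2 (adjusted p = 0.0419) or 23DIV basal replicate 1 (adjusted p = 0.0463). Bic+4AP at 180 min gave 24.8 and 29.2 CPM, above the basal samples but not called (log2 fold change 0.48 ± 0.20, adjusted p = 0.0971).

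At 21DIV in the stimuli experiment Crem was at 18.9, 23.9 and 27.9 CPM in basal neurons and 35.96 and 39.98 CPM after 15 min of KCl, with no overlap. It was called higher there (log2 fold change 0.69 ± 0.21, adjusted p = 0.0343), but this call was lost when any 1 of 4 of the 5 libraries was left out (adjusted p 0.0645 to 0.232), basal replicate 5 being the exception, and with no filter (adjusted p = 0.0653), summed transcripts (0.0503) or thinned counts (0.107). The values at 180 min of KCl, 36.5 and 36.9 CPM, were as far above basal without passing the test (log2 fold change 0.64 ± 0.23, adjusted p = 0.226). With Bic, Crem was at 25.1 and 31.3 CPM at 15 min, 29.1 and 40.1 CPM at 45 min and 23.7 and 27.6 CPM at 180 min, overlapping the basal samples at 15 and 180 min. The lowest levels were those of silenced and TTXw neurons, described below. Because libraries hold 3′ ends, and 43 of the 45 Crem transcripts in the maturation table had counts within 10% of the highest, ICER and the long CREM isoforms could not be separated.

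Crtc1, the coactivator best known in neurons, fell in mature neurons with prolonged Bic+4AP. It was at 12.7, 15.8 and 21.4 CPM in 23DIV basal neurons and 5.67 and 9.54 CPM after 180 min, without overlap (log2 fold change -1.11 ± 0.32, adjusted p = 0.0153). At 7DIV the same stimulus gave 18.6, 22.4 and 26.3 CPM beside 15.3, 16.03 and 20.2 CPM in basal samples, not called (log2 fold change 0.36 ± 0.28, adjusted p = 0.918). The responses at the 2 stages differed by -1.47 ± 0.42 on the log2 scale (adjusted p = 0.0381). In the main edgeR fit Crtc1 alone passed the threshold for such a difference, and under some alternatives Crem and Sik2 passed it too. The decrease was lost without 23DIV basal replicate 3 (log2 fold change -0.87, adjusted p = 0.0946) or Bic+4AP 180 min replicate 3 (log2 fold change -0.82, adjusted p = 0.181), and the difference between stages without any 1 of 8 of its 11 libraries (adjusted p 0.0588 to 0.158). The decrease was also lost with thinned counts (adjusted p = 0.242) or a fit on the compared groups alone (0.0521), and the difference between stages with summed transcripts (0.0573), thinned counts (0.184) or the other transcript of Crtc1 (0.061). KCl for 180 min at 23DIV left Crtc1 at 6.81, 11.5 and 13.2 CPM, which did not pass the test (adjusted p = 0.139).

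Crtc3, a coactivator of the same family, showed the same direction in that condition, from 13.9, 15.3 and 17.4 CPM in basal neurons to 4.86 and 9.54 CPM. The groups did not overlap (log2 fold change -1.08 ± 0.38, adjusted p = 0.0471), yet leaving out any 1 of 4 of the 5 libraries ended the call (adjusted p 0.0561 to 0.345), as did DESeq2's size factors, the filterByExpr filter, summed transcripts and a fit on the compared groups alone (0.0515 to 0.0541). At 7DIV its values after KCl at 180 min were spread widely, 4.23, 10.2 and 14.2 CPM against 13.5, 16.5 and 21.2 CPM in basal samples, and were not called (adjusted p = 0.337). Astrocyte markers, which summed to 4641 to 5656 CPM in 23DIV basal neurons, summed to 1763 to 3397 CPM after 180 min of Bic+4AP, with 3 of 10 called lower. Markers of the oligodendrocyte lineage summed to 2398 to 3157 CPM and 1020.2 to 1652 CPM (3 of 8 tested lower, 1 higher), neuronal markers to 5349 to 5817 CPM after treatment (2 of 6 lower), and 2 of 3 tested microglial markers were called higher. The part of these cell types in the decreases of Creb1, Crtc1 and Crtc3 and the increases of Sik1 and Sik2 there was not tested.

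Crtc2 was at or under the detection limit in most libraries. It had 32 counts over the 28 maturation libraries, 12 of which had 0 and none more than 4, and 6 counts over the 27 stimuli libraries, 21 of which had 0 and none more than 1. Its highest level was 1.41 CPM in the maturation and 0.651 CPM in the stimuli libraries. A count of 0 in a single library allows a level up to the limit given above, 1.83 or 2.69 CPM in the shallowest libraries. No comparison was made for Crtc2.

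Sik2 was the member called most often. It was called in 6 of 17 stimulation comparisons, in the comparison of stages and in silenced neurons. These counts are of a predicted RefSeq transcript, with 5240 counts in the maturation and 2885 in the stimuli libraries. The curated transcript had fewer, 1229 and 496. With the curated transcript of Sik2, an alternative added after the data were seen, 5 of the 6 stimulation calls were lost (adjusted p = 0.294 for KCl 15 min and 0.196 for Bic+4AP 180 min at 23DIV, and 0.591, 0.124 and 0.618 for Bic at 15, 45 and 180 min), with the direction kept. KCl at 15 min at 21DIV, the stages and silencing were kept. The part of the lower counts in the lost calls was not tested. Basal neurons had 69.6, 73.6 and 82.4 CPM at 7DIV and 19.8, 22.2 and 23.5 CPM at 23DIV, so that its level fell between the stages with a wide gap between the groups (log2 fold change -1.75 ± 0.18, adjusted p = 4.23e-06). This call held without each library in turn and under every other setting. In the same comparison 9 of 10 astrocyte markers and 8 of 8 tested markers of the oligodendrocyte lineage were called higher at 23DIV, and their part in this decrease and in that of Sik3 was not tested.

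Stimulation of 23DIV neurons raised Sik2 from this low level. It was at 34.9, 39.2 and 43.9 CPM after 15 min of KCl (log2 fold change 0.85 ± 0.26, adjusted p = 0.0406) and 37.8 and 47.9 CPM after 180 min of Bic+4AP (log2 fold change 0.98 ± 0.29, adjusted p = 0.0195), above every basal sample. At 15 min of Bic+4AP it was still at 18.8 and 20.5 CPM, within or just below the basal range, and the step from 15 to 180 min was called (log2 fold change 1.14 ± 0.36, adjusted p = 0.0331). That step was lost without any 1 of 3 of its 4 libraries (adjusted p 0.116 to 0.213) and with the curated transcript (0.176). At 180 min of KCl it was at 17.2, 44.3 and 49.8 CPM and not called (log2 fold change 0.76 ± 0.27, adjusted p = 0.0861). The lowest of these is replicate 1, the library that stands apart, and without it the change passed the threshold (log2 fold change 1.11, adjusted p = 0.00208), as it did, with a value near the limit, without 7DIV KCl 180 min replicate 2 (adjusted p = 0.0499). None of the Sik2 increases at 23DIV held without every library: the KCl 15 min call was lost in 5 of 6 cases (adjusted p 0.0606 to 0.163) and with summed transcripts or thinned counts, and the Bic+4AP 180 min call without basal replicate 3 (adjusted p = 0.0705) or Bic+4AP 180 min replicate 2 (adjusted p = 0.223).

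At 7DIV the higher basal level of Sik2 did not change past the threshold with any stimulus. After 15 min of KCl it was at 57.96, 61.4 and 64.4 CPM (log2 fold change -0.29 ± 0.26, adjusted p = 0.934), and after 180 min at 45.3, 56.7 and 99.9 CPM, a spread that covers the basal samples. With Bic+4AP it was at 44.9, 65.1 and 74.5 CPM at 15 min and 68.9, 75.2 and 85.7 CPM at 180 min. The difference between the stages in the 15 min KCl response, 1.14 ± 0.37 on the log2 scale, did not pass the test (adjusted p = 0.108), although it did when KCl 180 min replicate 1, in the shared fit but not in this comparison, was left out (log2 fold change 1.13, adjusted p = 0.0313), with no filter on low genes (adjusted p = 0.00803) or with a fit on the compared groups alone (adjusted p = 0.0188). The 180 min KCl response likewise differed between the stages without that replicate (log2 value 1.25, adjusted p = 0.0248) and not with it (adjusted p = 0.249). For 180 min of Bic+4AP the difference passed in edgeR with a fit on the compared groups alone (log2 value 0.95, adjusted p = 0.0306).

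**Figure D3:**
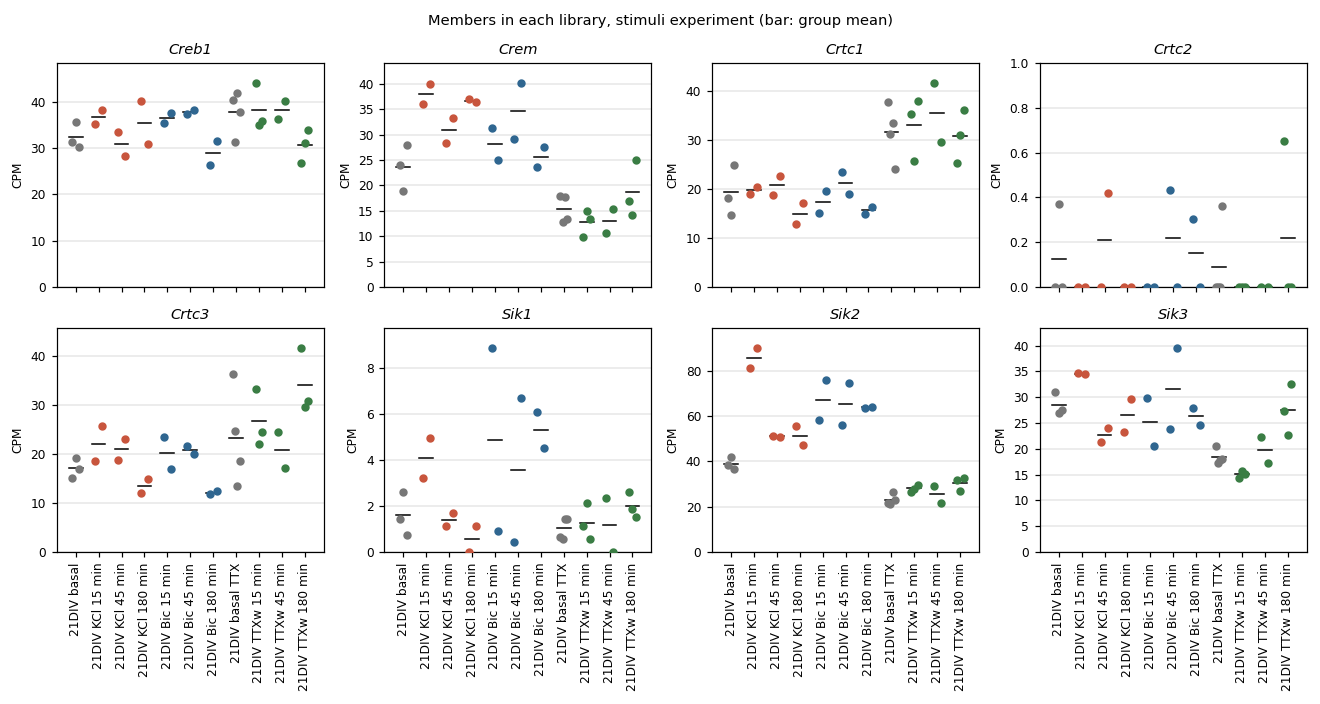
Level in CPM of each member in each sample of the stimuli experiment, by group, with points for samples and bars for group means. Sik2 lay at 36.6 to 41.8 CPM in basal samples, 81.2 to 89.9 CPM after 15 min of KCl and 21.4 to 26.3 CPM in basal TTX samples.

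The stimuli experiment showed Sik2 in a range of states at 21DIV. Basal samples were at 36.6, 38.5 and 41.8 CPM. With KCl it was at 81.2 and 89.9 CPM at 15 min, 50.9 and 51.2 CPM at 45 min and 47.4 and 55.4 CPM at 180 min, all above the basal samples. The 15 min increase was called (log2 fold change 1.14 ± 0.16, adjusted p = 4.77e-06) and held without each library and under every other setting, while 45 min (log2 fold change 0.39 ± 0.17, adjusted p = 0.366) and 180 min (log2 fold change 0.39 ± 0.18, adjusted p = 0.372) were not called. The fall from 15 to 45 min was called too (log2 fold change -0.74 ± 0.18, adjusted p = 0.037), but it was lost without any 1 of its 4 libraries (adjusted p 0.0816 to 0.461), and with no filter, thinned counts or the curated transcript.

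With Bic the level of Sik2 stayed up: 58.2 and 76.1 CPM at 15 min, 55.998 and 74.8 CPM at 45 min and 63.8 and 64.2 CPM at 180 min, each above every basal sample. The calls were similar in size at 15 min (log2 fold change 0.75 ± 0.17, adjusted p = 0.00634), 45 min (log2 fold change 0.76 ± 0.16, adjusted p = 0.00184) and 180 min (log2 fold change 0.72 ± 0.16, adjusted p = 0.0116), and no step between times was called. Each was lost with 1 library left out: at 15 min Bic replicate 3 (log2 fold change 0.61, adjusted p = 0.108), at 45 min Bic replicate 2 (0.55, adjusted p = 0.151), and at 180 min Bic replicate 2 or 3 or basal replicate 5 (adjusted p 0.0762 to 0.111). Bic and KCl differed in Sik2 by -0.38 ± 0.18 at 15 min, 0.36 ± 0.18 at 45 min and 0.32 ± 0.19 at 180 min on the log2 scale, with adjusted p of 1, 0.526 and 0.569. Glial markers also moved in these groups. From 2623 to 3222 CPM in basal samples, astrocyte markers went to 4751 to 4786 CPM with KCl at 15 min (4 of 10 called higher), and to 4525 to 4841 CPM (2), 5181 to 5878 CPM (6) and 3107 to 3454 CPM (0) with Bic at 15, 45 and 180 min. Of 8 tested markers of the oligodendrocyte lineage, 4, 2, 4 and 0 were called higher in the same comparisons. Their part in the increases was not tested. KCl and Bic share their basal samples.

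Sik1, the salt-inducible kinase known as an early CREB target, had few counts. It passed the filter through stimulated samples alone, those of 180 min of Bic+4AP at 23DIV among them. Basal samples had 5, 8 and 11 counts at 7DIV and 2, 5 and 13 at 23DIV, the latter 0.344, 0.890 and 1.43 CPM. After 180 min of Bic+4AP at 23DIV it had 27 and 43 counts, which is 7.29 and 7.89 CPM and above every 23DIV basal sample. This increase was called (log2 fold change 2.99 ± 0.80, adjusted p = 0.0101), as was the step from 15 to 180 min (log2 fold change 3.56 ± 1.16, adjusted p = 0.0383), where the 15 min samples had 0 and 3 counts, so that the fitted fold of the step depends on the prior count and is no bound. The step was lost without any 1 of its 4 libraries (adjusted p 0.0735 to 0.215) and with thinned counts (0.0924). The increase was lost without Bic+4AP 180 min replicate 2 (log2 fold change 2.93, adjusted p = 0.0708) or with thinned counts (adjusted p = 0.118).

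With 180 min of KCl at 23DIV, Sik1 was at 2.33, 4.82 and 5.17 CPM, again above each basal sample, but it was not called (log2 fold change 2.10 ± 0.76, adjusted p = 0.101) unless low genes were kept (adjusted p = 0.027). Replicates often disagreed, as with 3, 4 and 41 counts after 15 min of KCl at 23DIV, 1, 9 and 34 after 180 min of Bic+4AP at 7DIV and 1 and 24 after 15 min of Bic at 21DIV. In the stimuli experiment the samples after 180 min of Bic had 17 and 20 counts and the basal ones 2, 5 and 7, without a call (adjusted p = 0.416). Sik1 did not pass the filter of the comparison of stages.

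Sik3, the third kinase, was not called in any of its 17 stimulation comparisons. It was lower in mature basal neurons, at 32.3, 32.6 and 36.2 CPM against 51.4, 51.8 and 52.5 CPM at 7DIV, without overlap (log2 fold change -0.60 ± 0.17, adjusted p = 0.0128). Leaving out 23DIV basal replicate 3 ended this call (log2 fold change -0.56, adjusted p = 0.0592), and without replicate 2 the change was under 1.5-fold (-0.57, adjusted p = 0.0397). Of the other tested members Creb1, Crem, Crtc1 and Crtc3 were not called between stages, with log2 fold changes of 0.16, 0.11, -0.03 and -0.09.

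Between basal TTX and basal neurons 4 of the 7 tested members were called. Sik2 was at 21.4, 21.8, 23.02 and 26.3 CPM in basal TTX samples, all below the basal ones given above (log2 fold change -0.75 ± 0.16, adjusted p = 0.000333), a call that held without each library and under every other setting. Sik3 was at 17.3, 17.8, 17.98 and 20.5 CPM against 27.02, 27.5 and 31.1 CPM in basal samples, also without overlap (log2 fold change -0.64 ± 0.19, adjusted p = 0.00876). Crem was at 12.7, 13.3, 17.8 and 17.9 CPM, below every basal sample (log2 fold change -0.64 ± 0.21, adjusted p = 0.0193). These 3 genes fell, a pair of kinases that restrain CRTCs and a gene that makes a CREB-like factor and its repressor.

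Crtc1 went the other way, to 24.1, 31.2, 33.4 and 37.7 CPM in basal TTX samples from 14.8, 18.2 and 24.9 CPM in basal ones (log2 fold change 0.69 ± 0.20, adjusted p = 0.0082). The groups overlapped by 1 sample on each side. The Sik3 call was lost without basal replicate 1 (log2 fold change -0.57, adjusted p = 0.0543) or with thinned counts (adjusted p = 0.181), and the Crtc1 call without basal replicate 2 (0.55, adjusted p = 0.0615) or with its other transcript (0.50, adjusted p = 0.115). The Crem call was lost without basal TTX replicate 2 or 4 or basal replicate 1 or 5 (adjusted p 0.057 to 0.114), and fell under 1.5-fold with summed transcripts (-0.53). Creb1 (log2 fold change 0.22 ± 0.16, adjusted p = 0.305), Crtc3 (log2 fold change 0.44 ± 0.23, adjusted p = 0.159) and Sik1 (log2 fold change -0.55 ± 0.84, adjusted p = 0.676) were not called, although Crtc3 passed without basal TTX replicate 3 (0.60, adjusted p = 0.0491). In the same comparison 10 of 10 astrocyte markers were called higher, to 7395 to 8441 CPM from 2623 to 3222 CPM, as were 5 of 8 tested markers of the oligodendrocyte lineage, to 2091 to 2161 CPM from 752 to 1194 CPM, and neuronal markers summed to 5786 to 6952 CPM. Their part in the 4 changes was not tested.

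After TTX was washed out, none of the 7 members was called at 15, 45 or 180 min. Sik2 was at 26.7, 27.9 and 29.7 CPM at 15 min, 21.5 and 29.3 CPM at 45 min and 26.8, 31.9 and 32.5 CPM at 180 min. At both 15 and 180 min each sample was above the basal TTX range (at 180 min log2 fold change 0.38 ± 0.18, adjusted p = 0.135). Sik3 was at 22.6, 27.3 and 32.5 CPM at 180 min, above each basal TTX sample (log2 fold change 0.56 ± 0.21, adjusted p = 0.0502), and passed the threshold without TTXw 180 min replicate 2 (log2 fold change 0.70, adjusted p = 0.0366) or with thinned counts (0.65, adjusted p = 0.0461). Crtc3 was at 29.6, 30.96 and 41.6 CPM against 13.5, 18.7, 24.8 and 36.4 CPM in basal TTX, not called (log2 fold change 0.55 ± 0.23, adjusted p = 0.0867) except without basal TTX replicate 1 (0.81, adjusted p = 0.0103). Crem overlapped basal TTX, with 14.1, 16.9 and 24.9 CPM at 180 min. At that time astrocyte markers summed to 10844 to 15158 CPM and neuronal markers to 3643 to 4609.9 CPM, and their part in these values was not tested.

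The genes that surround the 8 members in the pathway were described by lists, whose counts are set beside the share of all genes called. The list of 20 textbook CREB and CRTC target genes moved in more comparisons than any other list. At 7DIV, 6 of 20 were called higher after 180 min of KCl (1.98% of all genes, median log2 fold change 0.64 against 0.00 over all genes), led by the AP-1 subunit Junb (log2 fold change 2.63 ± 0.23, adjusted p = 2.61e-08). At 23DIV, 10 rose after 15 min (6.23% of all genes) and 15 after 180 min (4.89%) of KCl, and 2 after 15 min (0.0511%) and 16 after 180 min (14.2%) of Bic+4AP, where the median was 2.01 against -0.02 over all genes. Fos, the AP-1 subunit used as a marker of activity, led there (log2 fold change 4.33 ± 0.31, adjusted p = 1.69e-10), and 13 of the 20 had a stronger response than at 7DIV (4.95% of all genes differed). Between basal stages 9 of 19 were lower and 2 higher at 23DIV (33.1% of all genes), from the repressor Nfil3 (log2 fold change -3.44 ± 0.20, adjusted p = 4.17e-08) to the cyclooxygenase Ptgs2 (log2 fold change 3.37 ± 0.33, adjusted p = 3.69e-06).

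At 21DIV, 11, 3 and 8 of the 20 targets rose with KCl at 15, 45 and 180 min (7.22%, 0.765% and 0.765% of all genes), and 11, 12 and 13 with Bic (3.42%, 7.45% and 0.765%). Bic gave higher levels than KCl for 10 of them at 45 min (0.682%) and 7 at 180 min (0.732%). TTXw raised 0 at 15 min by edgeR (unadjusted p under 0.05 for 757 of all 12027 genes), 7 at 45 min (0.382%) and 9 at 180 min, with 3 lower at 180 min (14%). In basal TTX against basal, 16 of the 20 were lower (21.6% of all genes were called), with a median of -2.32 against 0.00 over all genes. The largest decrease was that of the neurotrophin Bdnf (log2 fold change -4.53 ± 0.19, adjusted p = 1.25e-20). The direction of these targets in silenced neurons was thus that of Sik2, Sik3 and Crem and opposite to that of Crtc1.

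**Figure D4:**
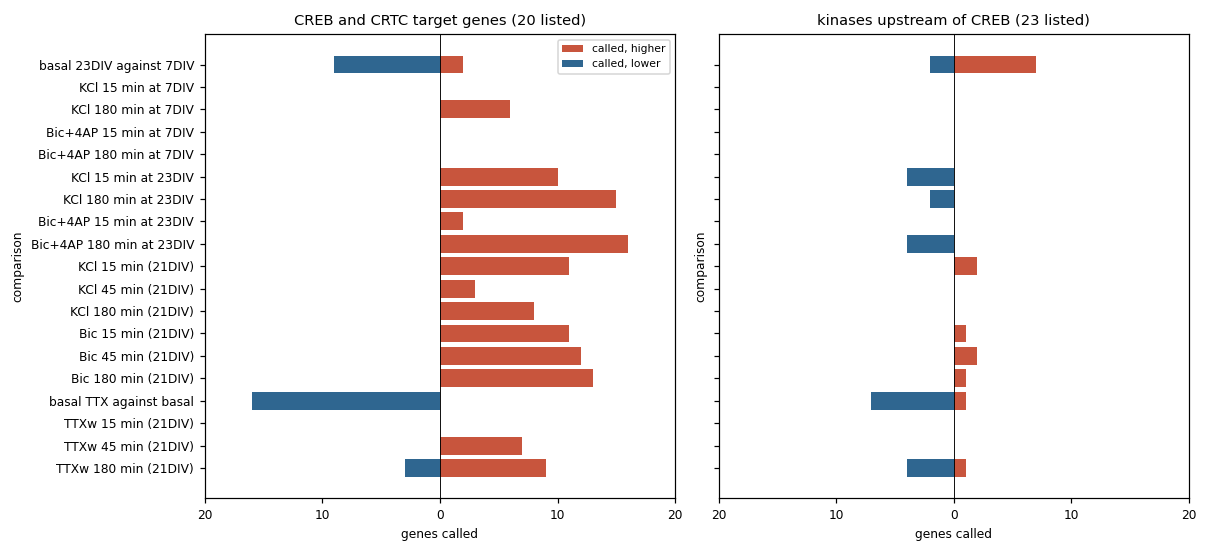
Number of genes called higher (positive) and lower (negative) among the targets of CREB and CRTC and among the kinases upstream of CREB. The comparisons shown are those of the basal stages, of each stimulus with its own control and of basal TTX with basal. The targets of CREB and CRTC rose for 16 of 20 genes after 180 min of Bic+4AP at 23DIV and fell for 16 of 20 in basal TTX against basal.

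For the other lists the counts in the comparison of stages and in silenced neurons stand beside backgrounds of 33.1% and 21.6%. Of 20 kinases upstream of CREB, 7 were higher and 2 lower at 23DIV, led by the calcium/calmodulin kinase Camk2a (log2 fold change 2.84 ± 0.15, adjusted p = 1.77e-08) and, downward, the protein kinase A regulatory subunit Prkar2b (log2 fold change -2.50 ± 0.13, adjusted p = 1.51e-08). After 180 min of Bic+4AP at 23DIV, 4 of 21 fell and 0 rose (14.2% of all genes), among them Camk4, a nuclear kinase of CREB (log2 fold change -1.51 ± 0.22, adjusted p = 2.46e-05). With 15 min of KCl at 23DIV 4 of 21 fell as well (6.23% of all genes). In silenced neurons 7 of 22 fell and 1 rose, the kinase Rps6ka5, also known as MSK1 (log2 fold change 2.31 ± 0.70, adjusted p = 0.00982). TTXw at 180 min gave 1 higher and 4 lower (14% of all genes). The cAMP genes, cyclases, phosphodiesterases and inhibitors of protein kinase A, had 7 of 15 higher and 3 lower at 23DIV. Pkib led there (log2 fold change 2.29 ± 0.29, adjusted p = 3.38e-05). After 180 min of Bic+4AP at 23DIV 3 of 16 were lower (14.2% of all genes), and in silenced neurons 2 were higher and 3 lower. After 180 min of TTXw 3 were lower and 1 higher (14% of all genes), the phosphodiesterase Pde4b (log2 fold change 1.20 ± 0.11, adjusted p = 1.67e-10).

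For the partners that act on CRTCs the shares called between the stages were near or below that of all genes. Of the SIK substrates and coactivators, 2 of 7 were lower at 23DIV, and in silenced neurons 2 of 8 were lower and 3 higher, with the class IIa histone deacetylase Hdac9 changing the most (log2 fold change -3.07 ± 0.23, adjusted p = 1.52e-13). Of calcineurin subunits and other phosphatases, 2 of 9 were higher at 23DIV, the catalytic subunit Ppp3ca (log2 fold change 1.14 ± 0.14, adjusted p = 2.38e-05) and the regulatory subunit Ppp3r1 (log2 fold change 0.60 ± 0.15, adjusted p = 0.0071), and 1 of 9 was lower in silenced neurons. Of the 14-3-3 genes 2 of 6 were lower at 23DIV, Ywhaq (log2 fold change -0.69 ± 0.11, adjusted p = 0.000328) and Ywhaz (log2 fold change -0.68 ± 0.12, adjusted p = 0.000509). Of the LKB1 complex, which activates SIKs, 1 of 5 was higher after 180 min of Bic+4AP at 23DIV (14.2% of all genes were called). This was Cab39l (log2 fold change 0.82 ± 0.26, adjusted p = 0.0305). Of the relatives of CREB, Crebrf, a regulator of CREB3, fell with KCl (log2 fold change -1.78 ± 0.25, adjusted p = 5.41e-06) and Bic (log2 fold change -1.67 ± 0.27, adjusted p = 0.000121) at 15 min, and 2 of 7 relatives were higher at 23DIV.

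The genes most like Crem and Sik1 were ranked by Pearson's r of log2 group means, log2(CPM + 1), with no test. They are the highest of 8682 genes compared in the maturation and 9318 in the stimuli experiment. For Crem the 5 highest over the 10 maturation groups were Cwc25 (0.97), Nfkbid (0.92), Las1l (0.90), Ccdc174 (0.89) and Pign (0.89). Over the 11 stimuli groups 4 of the 5 highest were Sema6a (0.97), Rap1b (0.96), Unc13b (0.96) and Lims1 (0.96), and no gene was in both sets. For Sik1 they were Srsf11 (0.97), Pcdh9 (0.95), St13 (0.94), Slc66a2 (0.94) and Peli1 (0.94) in the maturation groups. In the stimuli groups they were Magoh (0.91), Lsm12 (0.89), Ppm1d (0.89), Unc119b (0.88) and Hspa2 (0.87), again with none shared. The Sik1 ranking rests on few counts, with a median of 2.55 CPM in the maturation and 1.44 CPM in the stimuli libraries. These levels are near the detection limit, and replicates of several groups disagreed.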

How the data were processed

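RNA was measured in 3′ end libraries (CEL-Seq2). The authors mapped the reads to mm10 (STAR) and assigned them to RefSeq transcripts with the End Sequence Analysis Toolkit. The deposited values are raw counts, in 1 table per experiment. Whether reads with the same molecular identifier were collapsed is not given in the sources used here, so limits from counts cover counting error only. The sample labels gave groups and replicate numbers. The mature neurons of the maturation experiment are labelled 23DIV, and the study groups them as 21DIV. The members, gene lists and tests were chosen with earlier results of these data known.

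Transcripts were matched to symbols with the RefSeq annotation of GRCm38.p6, for 78905 of 97700 and 78229 of 96722 transcripts. The unmatched ones held 18.5% and 19.2% of the counts and none of a member. Reads at a shared 3′ end recur under several transcripts of a gene, so the transcript with the most counts stood for its gene. Replicates differed by more than sampling noise, the chi-square divided by its degrees of freedom being between 2.08 and 18.0 over 48 pairs.

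Genes above 5 CPM in at least 2 samples (11746 in the maturation and 12027 in the stimuli experiment, 10510 in the basal comparison of stages) were normalized by TMM and tested with edgeR 4.0.16 in R 4.3.3, by its quasi-likelihood test with Benjamini-Hochberg adjustment. A gene was called at 1.5-fold or more with an adjusted p below 0.05, and a difference in response between stages at an adjusted p below 0.05 alone. Standard errors were derived from the F statistic. The comparison of stages was fitted on its 6 basal samples, and the others in 1 fit per experiment. The 36 comparisons were repeated with DESeq2 1.42.0, other normalization, filters, fits, transcripts and thinned counts, with the replicate number as a block, and without each library. The tests were checked on simulated data, with changes set only in well-expressed genes and a single spread for all genes. That check does not cover members with few counts, such as Sik1. From each pathway list, the 3 genes with the largest change among those called in a kind of comparison could be named, and of these the text gives a selection. Promoter sequences are RefSeq's on GRCm38.p6. One gene of the ranking by likeness is not reported here.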

Additional observations from a re-analysis of the deposited data

Results flagged for a closer look

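The response of Crtc1 to 180 min of Bic+4AP differed between the stages by a test of the difference itself, with a log2 value of -1.47 ± 0.42 (adjusted p = 0.0381 by edgeR's quasi-likelihood test) for 23DIV minus 7DIV. Crtc1 fell in 2 of 2 samples at 23DIV, to 5.67 and 9.54 CPM from 12.7, 15.8 and 21.4 CPM, and was at 18.6, 22.4 and 26.3 CPM beside 15.3, 16.03 and 20.2 CPM at 7DIV. The call was lost without any 1 of 8 of the 11 libraries.

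Crtc2 in the basal TTX group was 0.36 CPM, from 1 count, in replicate 4 and 0 in the other 3 samples, a gap equal to the whole range of the group and past Dixon's 95% critical value. A single count is within the limit that a count of 0 allows. When all other samples are at 0, a single count always gives this gap, so the mark says nothing about Crtc2.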

How the results depend on the processing

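Of the 23 calls for members over the 36 comparisons, 0 turned direction under any alternative. 5 were kept under every alternative and with each library left out, namely Crem with KCl at 180 min and from 15 to 180 min at 7DIV, and Sik2 between stages, with KCl at 15 min at 21DIV and in basal TTX. 18 were lost with 1 library left out and 17 under another setting. DESeq2 kept 23, DESeq2's size factors and the filterByExpr filter 22 each, no filter 20, counts thinned to the smallest library 15 and the other transcript, chosen after seeing the data, 14. A fit of the compared groups alone kept 19 of 21, and counts summed over distinct transcripts 16 of 21.

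Numbers of called members changed by over 1.5 times as follows. For stimulation at 23DIV they were 3 with summed counts and 3 with thinned counts, in place of 6. For the responses compared between stages they were 2 with DESeq2, 2 with no filter, 3 with the compared groups alone and 0 with summed counts, thinned counts or the other transcript, in place of 1. For KCl at 21DIV they were 1 with no filter, summed or thinned counts, in place of 2. For Bic the other transcript gave 0 in place of 3, and for TTXw it gave 1, as did thinned counts, in place of 0. For successive times in the stimuli experiment no filter and thinned counts gave 0 in place of 1. The cause of these changes was not tested.

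Same-numbered samples did not deviate together (median correlation 3.27e-05 and 0.00764 in the 2 experiments, 5 of 28 and 6 of 27 samples closest to their own number). The groups are small, so this check cannot exclude that such samples share a culture. With the replicate block 15 of 23 calls were kept. The calls were then 1 in place of 3 for 180 against 15 min in the maturation experiment and 1 in place of 3 for Bic. They were 2 in place of 4 for basal TTX, where Sik3 and Crem were lost, and 0 in place of 1 for successive times.

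With 1 library left out, the calls ranged from 1 to 2 between stages, 1 to 1 for stimulation at 7DIV, 2 to 8 for stimulation at 23DIV, 0 to 3 for responses compared between stages, 1 to 3 for 180 against 15 min, 1 to 2 for KCl, 2 to 3 for Bic, 0 to 1 for TTXw, 2 to 5 for basal TTX, 0 to 0 for Bic against KCl and 0 to 1 for successive times. Depth limits Crtc2, which could not be tested, and Sik1, which had at most 43 counts in a library.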

Other observations

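The curated RefSeq transcript of Sik2, with which 5 of its 6 stimulation calls were lost, has its own counts. In the stimuli experiment the curated transcript was at 6.27, 6.66 and 7.54 CPM in basal samples, 17.4 and 18.6 CPM after 15 min of KCl and 1.80, 2.65, 2.89 and 4.98 CPM in basal TTX samples. There the KCl samples lay above the basal ones and the basal TTX samples below them. With Bic it was at 8.95 and 9.21 CPM at 15 min, 9.98 and 12.7 CPM at 45 min and 9.71 and 10.3 CPM at 180 min, not called (log2 fold change 0.42, 0.75 and 0.56). After 180 min of TTXw it was at 7.81, 7.999 and 8.31 CPM, above every basal TTX sample and called (log2 fold change 1.47, adjusted p = 0.00317), whereas the transcript with the most counts was not called there (adjusted p = 0.135). These TTXw values rest on 11 to 17 counts per sample and those of basal TTX on 4 to 7. The alternative transcript was chosen after the data were seen. In the maturation experiment it was at 14.6, 14.6 and 20.8 CPM in 7DIV basal and 2.75, 4.99 and 8.37 CPM in 23DIV basal samples, again lower at 23DIV (log2 fold change -1.61, adjusted p = 0.00589).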
